A study of Mus musculus with 14 samples.

Results

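The expression of 8 genes of adult neurogenesis was followed in the contralateral and ischemic brain hemispheres of wild-type and cortistatin-deficient mice. These genes were Sox2, Dlx1, Dlx2, Sox4, Sox11, Dcx, Cd24a and Igfbpl1, chosen by symbol as genes of subventricular progenitors and neuroblasts. They are 8 of the 46904 genes with an RPKM value, a read count divided by the length of the gene and the depth of the library. All 8 were above 0 in each of the 14 libraries and were tested among 46102 genes.

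The 4 groups were Cort+/+ contralateral (CL, n = 3), Cort+/+ ischemic (MCAO, n = 3), Cort-/- CL (n = 3) and Cort-/- MCAO (n = 5) hemispheres. All mice were males of 12 weeks on a C57BL/6J background, and Cort-/- animals lacked the cortistatin gene in every tissue from conception, so that no cell type or time of loss can be singled out. Each mouse underwent transient middle cerebral artery occlusion (MCAO) for 20 min with a filament on the left side, and mRNA of whole hemispheres was sequenced 48 h later. CL hemispheres came from the operated animals, and sham-operated mice were not analysed here. In Cort+/+ MCAO hemispheres, the replicates analysed here are numbered 2, 3 and 4, and values below are in the order of these numbers.

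In the adult mouse brain, new neurons arise from radial glia-like stem cells in the subventricular zone of the lateral ventricles and in the dentate gyrus. In the subventricular zone these cells give rise to transit-amplifying progenitors and then to neuroblasts, which migrate to the olfactory bulb and mature into interneurons. After stroke in rodents, neuroblasts are known to leave this route towards the injured striatum. Sox2 is a SoxB1 transcription factor that maintains neural stem cells and is also present in astrocytes. Dlx1 and Dlx2 are homeobox factors that specify GABAergic neurons in the ganglionic eminences and the subventricular zone, and Sox4 and Sox11 are SoxC factors that drive neuronal differentiation. Dcx encodes doublecortin, a microtubule-associated protein of migrating neuroblasts. Cd24a encodes a surface glycoprotein by which neuroblasts are sorted and which ependymal and blood cells also carry, and Igfbpl1 encodes a secreted relative of the insulin-like growth factor binding proteins.

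Libraries held between 25991185 and 43034624 reads on genes. As a check of the labels, Cort was between 2.61 and 5.68 RPKM in the 6 Cort+/+ libraries and between 0 and 0.136 RPKM in the 8 Cort-/- libraries. Cort+/+ CL replicate 1, Cort-/- MCAO replicate 4 and Cort-/- CL replicate 2 had the lowest quality weights in limma (0.699, 0.806 and 0.820). The others had 0.827 to 1.38, so that no gap sets the 3 apart. Results without these 3 libraries of low weight, left out together after the data were seen, are given beside the main changes they made. Cort-/- MCAO replicate 4 was the lowest of its group for 5 of the 8 genes, and Cort-/- CL replicate 2 the highest for 5. Leaving out each moves the fitted Cort-/- MCAO minus CL difference of those genes upward by construction, so this is no independent check. Brain identity was plain from the mature neuron markers, whose summed level was between 2066 and 2823 RPKM in the 14 libraries. Expression in bulk tissue cannot separate fewer cells of a type from less RNA per cell.

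RefSeq promoters were at hand for 6 of the 8 genes, the exceptions being Cd24a and Igfbpl1. Shown here are the 250 bases upstream of the transcription start of Sox11, Dlx2 and Dcx, the members with a promoter in that table whose fitted level lay furthest below the CL level in Cort-/- MCAO hemispheres. The downstream end of the RefSeq entry was found in the longest annotated transcript for Dlx2 and Dcx. It was not found for Sox11, whose start is thus less certain. The sequences run 5′ to 3′ in the direction of transcription on the minus strand of GRCm38.p6, at chr12:27342719-27342968 for Sox11, chr2:71546755-71547004 for Dlx2 and chrX:143933220-143933469 for the first of 2 Dcx starts. Capitals mark matches on either strand to TAATTA (a homeodomain core), ACAAAG (a SOX site), CAGCTG (an E-box) and CCAAT.
Sox11: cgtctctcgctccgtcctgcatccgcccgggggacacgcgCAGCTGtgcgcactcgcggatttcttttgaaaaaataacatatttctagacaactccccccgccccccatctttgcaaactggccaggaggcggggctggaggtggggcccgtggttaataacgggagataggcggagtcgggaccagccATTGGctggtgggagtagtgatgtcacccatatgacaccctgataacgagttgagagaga
Dlx2: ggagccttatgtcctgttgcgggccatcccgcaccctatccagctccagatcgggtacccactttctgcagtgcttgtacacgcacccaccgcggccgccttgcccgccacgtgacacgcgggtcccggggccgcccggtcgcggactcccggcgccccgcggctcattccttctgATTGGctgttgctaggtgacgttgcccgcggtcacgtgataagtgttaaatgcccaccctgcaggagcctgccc
Dcx: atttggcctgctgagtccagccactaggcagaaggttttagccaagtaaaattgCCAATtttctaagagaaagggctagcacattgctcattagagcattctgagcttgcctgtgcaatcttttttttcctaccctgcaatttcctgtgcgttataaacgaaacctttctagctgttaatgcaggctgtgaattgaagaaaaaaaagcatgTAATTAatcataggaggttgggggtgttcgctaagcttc
The Dcx sequence holds TAATTA, present in 4.84% of 32851 RefSeq promoters of this length, and CCAAT, present in 33.8%. Sox11 holds CAGCTG (13% of promoters) and CCAAT, and Dlx2 holds CCAAT alone. ACAAAG (16.5% of promoters) had no match in these 3 sequences, and matched in the promoters of Sox2 and of the second Dcx start. These matches describe letters and were not tested as sites.

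Ordered by mean expression over the 14 libraries, Sox2 was first with 13.4 ± 1.54 RPKM (SD, n = 14). It was followed by Dlx1 with 5.37, Cd24a with 5.03, Sox4 with 4.01, Dcx with 3.95, Dlx2 with 2.71, Sox11 with 2.03 and Igfbpl1 with 0.637 RPKM. Sox2 exceeded Dlx1, Dcx exceeded Dlx2 and Sox11 exceeded Igfbpl1 in 14 of 14 libraries. Neighbours were less clearly ordered in the middle, where Dlx1 exceeded Cd24a in 10 and Sox4 exceeded Dcx in 8 of 14 libraries. Igfbpl1 rested on 48 to 85 reads per library, the fewest, and Dcx on 1037 to 1556, the most.

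MCAO changed none of the 8 genes detectably. In Cort+/+ mice, 0 of the 8 passed an adjusted p of 0.05 in limma when MCAO was compared with CL hemispheres, against 0.0108% of all genes (5 of 46102). In Cort-/- mice 0 of the 8 passed as well, against 1.72% of all genes (792, of which 616 rose and 176 fell). At an unadjusted p under 0.05, 0 of the 8 in Cort+/+ and 1, Dcx, in Cort-/- mice were found by limma, with 7.87% and 12.7% of all genes, and voom on recovered reads called 0 in each genotype and had 0 and 2 members (Dcx and Sox11) under that unadjusted p. The median log2 fold change (log2FC) of the 8 genes was 0.0012 in Cort+/+ and -0.19 in Cort-/- mice, where the median over 15063 genes of at least 1 RPKM was -0.016 and -0.034. Without the 3 libraries of low weight the median of the 8 in Cort-/- mice was -0.068. Of the 8 fitted values in Cort-/- mice 6 lay below 0 and 2 above. Groups overlapped for each of the 8 genes in both genotypes, while 9.84% of all genes in Cort+/+ and 9.11% in Cort-/- mice had groups without overlap.

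**Figure D1:**
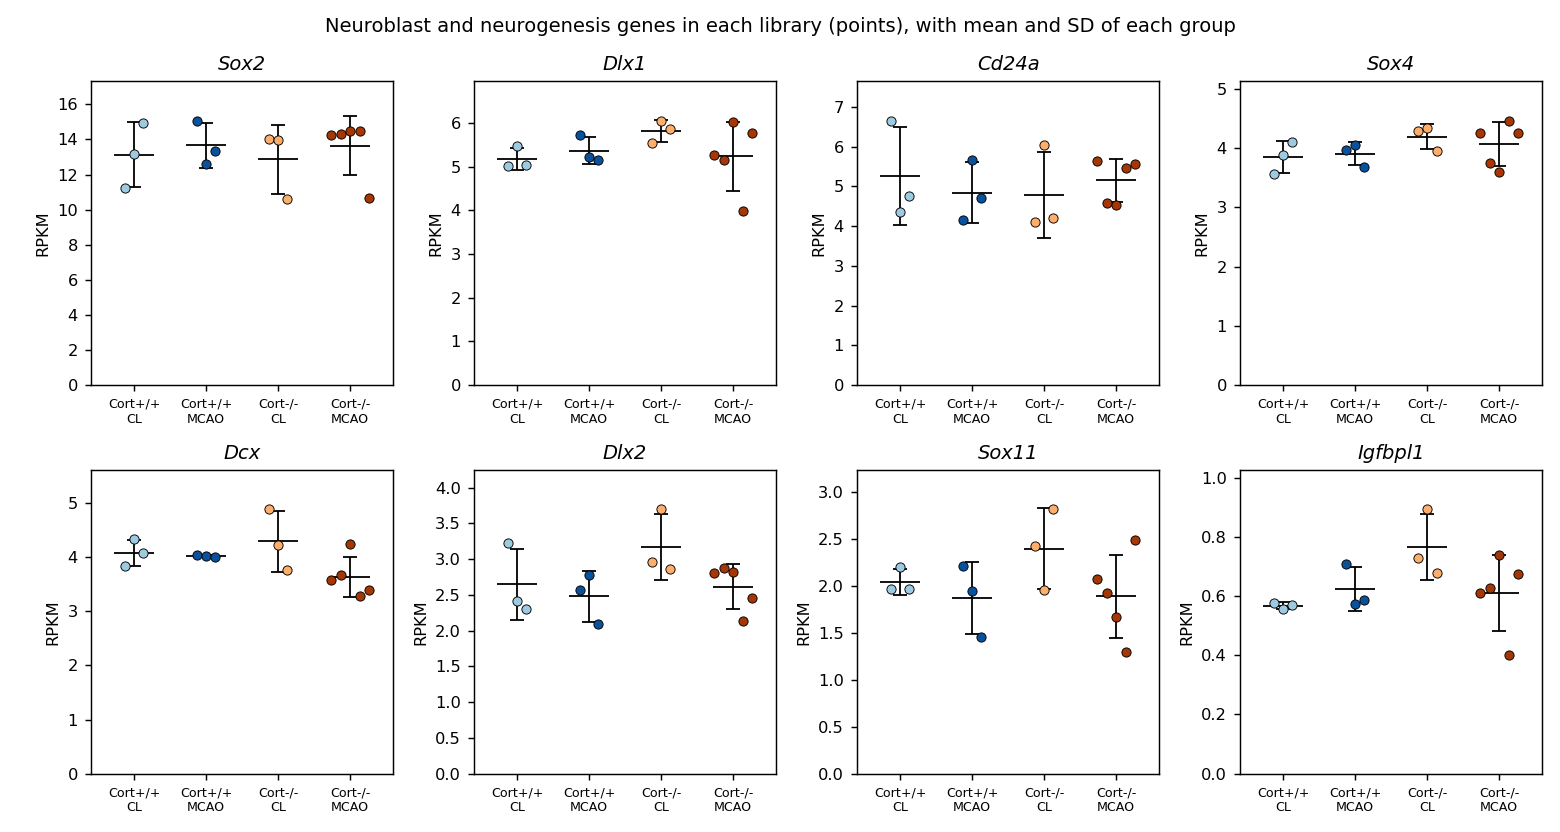
Each panel plots one gene, with RPKM on the vertical axis from 0, a point for each library and a dash with bars for the mean and SD of each group (n = 3, 3, 3 and 5). Ischemic and contralateral libraries overlap in every panel and both genotypes, and only Igfbpl1 and Dlx1 in Cort-/- CL lie wholly above their Cort+/+ CL libraries.

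Among the stem cell factors, Sox2 (chromosome 3, 34704554 to 34706610 of GRCm39, 1 exon) had 11.2, 13.2 and 14.96 RPKM in Cort+/+ CL and 15.1, 12.6 and 13.3 RPKM in Cort+/+ MCAO hemispheres. In Cort-/- mice it had 14.02, 13.99 and 10.6 RPKM in CL and 14.3, 14.3, 14.5, 14.5 and 10.7 RPKM in MCAO hemispheres. Each Cort-/- group thus held a single low library (10.6 and 10.7 RPKM), with the rest at or above 13.99 RPKM. By limma, log2FC was 0.06 (SE 0.14) in Cort+/+ and 0.09 (SE 0.13) in Cort-/- mice, with adjusted p = 0.970 and 0.852. Sox2 lies within the long noncoding gene Sox2ot on the same strand without shared exon bases, and Sox2ot had 2.47 ± 0.707 and 2.26 ± 0.621 RPKM (SD, n = 3) in Cort+/+ CL and MCAO hemispheres. In Cort-/- mice Sox2ot had 2.11 ± 0.290 (SD, n = 3) and 2.13 ± 0.345 RPKM (SD, n = 5).

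The pair Dlx1 and Dlx2 lies on chromosome 2 of GRCm39 at 71358457 to 71364325 and 71373752 to 71377102, transcribed towards each other with 9426 bases between them. Dlx1 had 5.001, 5.46 and 5.05 RPKM in Cort+/+ CL, 5.72, 5.23 and 5.15 in Cort+/+ MCAO, 5.54, 6.05 and 5.85 in Cort-/- CL and 5.26, 5.15, 6.03, 3.98 and 5.77 in Cort-/- MCAO hemispheres. One ischemic Cort-/- library, replicate 4, was far below the others, and 2 of the remaining 4 lay within the range of the CL libraries. The limma log2FC of Dlx1 was 0.05 (SE 0.12, adjusted p = 0.971) in Cort+/+ and -0.16 (SE 0.11, adjusted p = 0.605) in Cort-/- mice, and the latter was -0.07 without that library and -0.04 without the 3 libraries of low weight. Dlx2 had 3.22, 2.42 and 2.30 RPKM in Cort+/+ CL, 2.57, 2.77 and 2.09 in Cort+/+ MCAO, 2.96, 3.70 and 2.86 in Cort-/- CL and 2.81, 2.88, 2.82, 2.13 and 2.46 in Cort-/- MCAO hemispheres. A single CL library in each genotype, Cort+/+ replicate 1 and Cort-/- replicate 2, held the highest Dlx2 level of its group. Its limma log2FC was -0.08 (SE 0.16, adjusted p = 0.952) in Cort+/+ and -0.27 (SE 0.14, adjusted p = 0.472) in Cort-/- mice, and in the latter -0.15 without Cort-/- CL replicate 2 and -0.09 without the 3 libraries of low weight. The RPKM of Dlx1 was between 1.55 and 2.46 times that of Dlx2 in the 14 libraries. Dlx1 shares 3251 exon bases with the antisense gene Dlx1as (mean 2.33 RPKM), and whether reads were counted by strand is not given in the sources used here, although the kit keeps strand.

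For the SoxC factors, Sox11 (chromosome 12, 27384263 to 27392573) had 1.97, 2.20 and 1.96 RPKM in Cort+/+ CL, 2.21, 1.95 and 1.46 in Cort+/+ MCAO, 2.43, 1.96 and 2.82 in Cort-/- CL and 2.07, 1.92, 1.67, 1.30 and 2.49 in Cort-/- MCAO hemispheres. The Cort-/- MCAO libraries ranged from the lowest value of all 14 libraries to above 2 of the 3 Cort-/- CL libraries. This was the lowest fitted value of the 8 in both genotypes, with a limma log2FC of -0.14 (SE 0.21, adjusted p = 0.929) in Cort+/+ and -0.34 (SE 0.18, adjusted p = 0.491) in Cort-/- mice. Leaving out one library moved the Cort-/- value of Sox11 between -0.48 (without Cort-/- CL replicate 2) and -0.22 (without Cort-/- MCAO replicate 4). Without the 3 libraries of low weight it was -0.36, so that it did not shrink, and it was not called. Sox4 (chromosome 13, 29132902 to 29137696) had 3.57, 3.88 and 4.10 RPKM in Cort+/+ CL, 3.97, 4.06 and 3.69 in Cort+/+ MCAO, 4.29, 4.34 and 3.95 in Cort-/- CL and 4.26, 3.75, 3.599, 4.46 and 4.25 in Cort-/- MCAO hemispheres. Pooled over groups, its coefficient of variation was the smallest of the 8 genes (7.30%). By limma, log2FC was 0.02 (SE 0.09, adjusted p = 1.00) in Cort+/+ and -0.05 (SE 0.08, adjusted p = 0.867) in Cort-/- mice, with 95% intervals from an 11.05% fall to a 15.8% rise and from a 14.01% fall to an 8.89% rise. Sox4 shares 907 exon bases with the antisense gene A330102I10Rik (mean 1.22 RPKM).

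Among the genes of neuroblasts themselves, Dcx (chromosome X, 142638838 to 142716307) had 3.84, 4.32 and 4.07 RPKM in Cort+/+ CL, 4.04, 4.02 and 3.9999 in Cort+/+ MCAO, 4.88, 4.22 and 3.77 in Cort-/- CL and 3.58, 3.68, 4.24, 3.28 and 3.40 in Cort-/- MCAO hemispheres. The Cort+/+ MCAO libraries were nearly equal, while 4 of the 5 Cort-/- MCAO libraries were below all 3 Cort-/- CL libraries and the other exceeded 2 of them. In Cort+/+ mice the limma log2FC was -0.02 (SE 0.10, 95% interval -0.24 to 0.20, adjusted p = 1.00). Among mice lacking Cort the fitted value was -0.23 (SE 0.09, 95% interval -0.43 to -0.03), a fold of 0.853. Its adjusted p was 0.286 in limma, from an unadjusted 0.0257. The unadjusted p was under 0.05 in 19 of 26 alternatives, and the fitted value stayed below 0 in all 26. Leaving out one library moved the Cort-/- value between -0.32 (without Cort-/- CL replicate 3) and -0.13 (without Cort-/- CL replicate 1). It was -0.20 without the 3 libraries of low weight. The lowest adjusted p over 26 alternatives was 0.107 by limma, without Cort-/- MCAO replicate 3.

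Cd24a (chromosome 10, 43454280 to 43460264) had 6.65, 4.36 and 4.75 RPKM in Cort+/+ CL, 4.15, 5.66 and 4.70 in Cort+/+ MCAO, 4.10, 6.03 and 4.20 in Cort-/- CL and 5.62, 4.59, 4.54, 5.45 and 5.55 in Cort-/- MCAO hemispheres. Cort+/+ CL replicate 1 and Cort-/- CL replicate 2 stood above the other CL libraries, which were between 4.10 and 4.75 RPKM. Those 2 libraries also had the highest summed levels among CL libraries of the stem and radial glia-like list (448 and 442 RPKM, with 315 to 338 in the others) and of the microglia list (168 and 173 RPKM, with 135 to 143), and the part of this in Cd24a was not tested. The limma log2FC of Cd24a was -0.11 (SE 0.18, adjusted p = 0.942) in Cort+/+ and 0.12 (SE 0.16, adjusted p = 0.836) in Cort-/- mice. Without Cort+/+ CL replicate 1 the first was 0.07, and without Cort-/- CL replicate 2 the second was 0.30, again without passing. Without the 3 libraries of low weight the second was 0.28, also not called. The longest Cd24a transcript also aligned to chromosome 14 of GRCm39, where 1517 of 1741 aligned bases matched, so that its count is uncertain as far as reads could be split with that place. Weaker alignments lay on chromosomes 8 and 3, where 397 of 909 and 380 of 821 aligned bases matched. Cd24a also shares 110 exon bases with the antisense gene Mtres1 (mean 14.7 RPKM). The transcripts of the other 7 genes aligned to their own locus alone.

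Igfbpl1 (chromosome 4, 45809254 to 45826923) had 0.577, 0.555 and 0.571 RPKM in Cort+/+ CL, 0.709, 0.573 and 0.587 in Cort+/+ MCAO, 0.729, 0.892 and 0.679 in Cort-/- CL and 0.610, 0.627, 0.740, 0.401 and 0.674 in Cort-/- MCAO hemispheres. Cort+/+ CL libraries had the lowest mean and the smallest spread of the 4 groups, and Cort-/- CL libraries the highest mean. Its limma log2FC was 0.11 (SE 0.19, adjusted p = 0.945) in Cort+/+ and -0.30 (SE 0.17, adjusted p = 0.519) in Cort-/- mice. The latter was -0.18 without Cort-/- MCAO replicate 4 and -0.08 without the 3 libraries of low weight.

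The intervals limit how large a change could have gone unseen. Over the 8 genes, the 95% intervals of limma reached from a fold of 0.667 (Sox11) to 1.43 (Igfbpl1) in Cort+/+ mice and from 0.597 (Sox11) to 1.38 (Cd24a) in Cort-/- mice. Averaged over genotypes, where 3.43% of all genes passed (1163 rose and 416 fell, or 1279 and 206 on TPM), 0 of the 8 passed by limma, 0 were under an unadjusted p of 0.05 (14.9% of all genes were), and voom called 0. There the intervals reached from a fold of 0.688 (Sox11) to 1.22 (Sox2), and the lowest adjusted p was 0.447 for Dcx (log2FC -0.12, SE 0.07). These bounds concern whole hemispheres, in which the subventricular zone and dentate gyrus are a small part of the tissue.

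**Figure D2:**
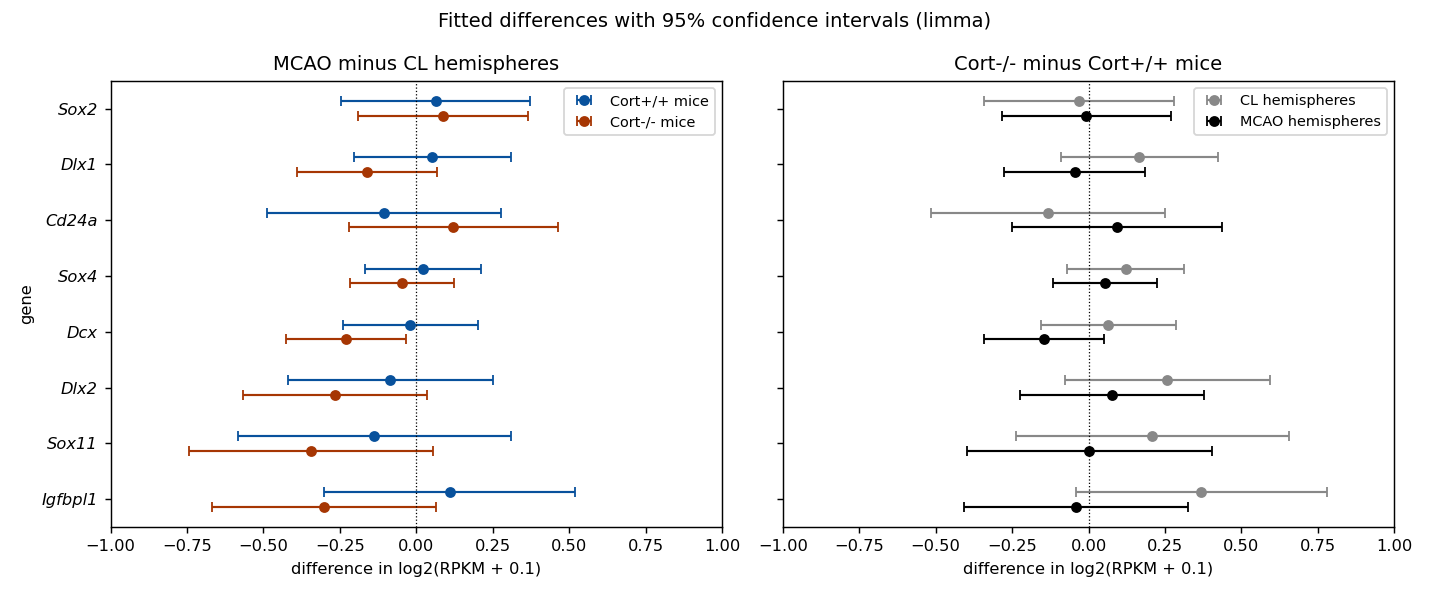
Points are fitted differences in log2(RPKM + 0.1) and bars their 95% confidence intervals, for MCAO minus CL hemispheres on the left and Cort-/- minus Cort+/+ mice on the right. All intervals include 0 apart from that of Dcx in Cort-/- mice (-0.43 to -0.03), which did not pass adjustment.

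Loss of cortistatin went with no detectable change in the 8 genes either. In CL hemispheres, 0 of 8 passed in limma (0.0152% of all genes, 7, did) and 0 were under an unadjusted p of 0.05 (3.91% of all genes), and voom gave the same 2 counts of 0. Fitted values lay above 0 for 6 of the 8, with a median log2FC of 0.14, against 0.0049 for genes of at least 1 RPKM. Without the 3 libraries of low weight the median was 0.080, and 1 member, Dlx2, was under an unadjusted p of 0.05. Groups did not overlap for Igfbpl1 (log2FC 0.37, SE 0.19, adjusted p = 1.00 by limma) and Dlx1 (log2FC 0.17, SE 0.12, adjusted p = 1.00), both higher in Cort-/- mice, where 6.25% of all genes had groups without overlap. Dlx2 (log2FC 0.26, SE 0.16) and Sox11 (log2FC 0.21, SE 0.21) came next by size in limma, with overlapping groups and adjusted p = 1.00.

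Among MCAO hemispheres, 0 of 8 differed between genotypes in limma (0.0174% of all genes, 8, did) and 0 were under an unadjusted p of 0.05 (3.82% of all genes), and voom gave 0 for both. All 8 had overlapping groups (2.42% of all genes had none). The median log2FC was -0.0024, with a range from -0.15 (Dcx) to 0.09 (Cd24a). The genotype difference in the response to MCAO, tested as an interaction, passed for 0 of 8 genes in limma (0.00217% of all genes, 1, passed), with 0 under an unadjusted p of 0.05 (3.31% of all genes) and 0 for both in voom. It was most negative for Igfbpl1 at -0.41 (SE 0.25, 95% interval -0.96 to 0.14, or -0.20 without the 3 libraries of low weight) and most positive for Cd24a at 0.23 (SE 0.24, 95% interval -0.29 to 0.74), with adjusted p = 1.00 for both by limma. For Dcx the interaction was -0.21 (SE 0.14, 95% interval -0.51 to 0.08), so that its response is not shown to differ between genotypes.

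Genes of the same lineage were compared by 6 lists without the 8 members, and in Cort+/+ mice 0 genes of the 6 lists passed in limma. That count depended on the setting, with 0 to 2 stem cell genes and 0 to 1 transit-amplifying genes called over 26 alternatives, and 2 and 0 without the 3 libraries of low weight. The largest changes among these lists in Cort-/- mice belonged to markers of radial glia-like stem cells. Of 25 such genes, 5 rose and 0 fell between CL and MCAO hemispheres, with a list median of 0.20 against -0.034 for genes of at least 1 RPKM. These were Vim (log2FC 2.36, SE 0.35, adjusted p = 0.00904 by limma) and Nes (1.97, SE 0.18, adjusted p = 0.00304), which encode intermediate filaments, Gfap (1.96, SE 0.44, adjusted p = 0.0424), the astrocyte filament, Tnc (1.69, SE 0.25, adjusted p = 0.00904), the matrix protein tenascin-C, and Fabp7 (1.13, SE 0.22, adjusted p = 0.0261), a brain lipid binding protein. All 5 are also known in reactive or immature astrocytes. Nes rose from 1.30 to 1.81 RPKM in the 3 Cort-/- CL libraries to 4.79 to 8.26 RPKM in the 5 MCAO libraries, without overlap. In Cort+/+ mice Nes had 1.52 to 1.89 RPKM in CL and 4.24 to 6.21 RPKM in MCAO hemispheres (log2FC 1.45, SE 0.20, adjusted p = 0.0584 by limma), and the list median was 0.20 as well. The fitted values of the other 4 genes in Cort+/+ mice were 1.93 for Vim (SE 0.39), 1.71 for Gfap (SE 0.49), 1.37 for Tnc (SE 0.28) and 1.18 for Fabp7 (SE 0.25), none called. Nes was called in Cort+/+ mice under 12 of the 26 alternatives, among them without Cort-/- CL replicate 2, Cort-/- MCAO replicate 3 or 4, or Cort+/+ MCAO replicate 3 or 4 (adjusted p = 0.0202 to 0.0457 in limma). The genotype difference was not called for any gene of the 6 lists. Sox2, a member also known from these cells, had log2FC values of 0.06 and 0.09 beside them, as given above.

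Single libraries bore on these calls. Nes and Tnc held their calls in Cort-/- mice without any 1 of the 14 libraries. Vim lost its call without Cort-/- CL replicate 1 or 3 (adjusted p = 0.0515 to 0.0536 by limma) and Fabp7 without Cort-/- CL replicate 1, 2 or 3 or Cort-/- MCAO replicate 1 or 5 (0.0543 to 0.121). Gfap kept its call only without Cort-/- MCAO replicate 3, Cort+/+ CL replicate 1 or 3, or Cort+/+ MCAO replicate 3 or 4, and without each of the other 9 libraries its adjusted p in limma was 0.0544 to 0.181. Without the 3 libraries of low weight, Vim and Nes stayed called in Cort-/- mice, while Gfap, Tnc and Fabp7 did not (adjusted p = 0.0655 to 0.0920 in limma), at log2FC values of 2.21, 1.68 and 1.11. In Cort+/+ mice Vim (log2FC 2.27, adjusted p = 0.0156 by limma) and Nes (1.35, adjusted p = 0.0430) were then called, and Tnc was called there without Cort+/+ MCAO replicate 4 (adjusted p = 0.0182). Averaged over genotypes, 8 of the 25 genes rose and 0 fell, the additional ones being Notch1, Lrig1 and Vcam1, named after their values were seen. Notch1 lost its call there without each of 10 libraries (adjusted p = 0.0534 to 0.117 in limma) and Lrig1 without each of 5 (0.0541 to 0.0641).

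Transit-amplifying and proneural genes showed 1 rise and 0 falls among 17 in Cort-/- mice. This was Rrm2 (log2FC 1.41, SE 0.21, adjusted p = 0.00904 by limma), a ribonucleotide reductase subunit of S phase, which ranged from 0.662 to 0.905 RPKM in CL and from 1.47 to 2.61 RPKM in MCAO libraries and kept its call without any 1 library, but not without the 3 of low weight (log2FC 1.50, adjusted p = 0.0673). Rrm2 had a log2FC of 1.49 (SE 0.23, adjusted p = 0.0787 by limma) in Cort+/+ mice, where it was called under 6 of the 26 alternatives, among them without Cort-/- MCAO replicate 3 or Cort+/+ MCAO replicate 4 (0.0057 to 0.0217). The receptor Egfr, named for its role in these progenitors, had a log2FC of 0.13 (SE 0.11) in Cort+/+ and 0.13 (SE 0.10) in Cort-/- mice, neither called by limma. General cell cycle markers rose, with 1 of 12 (Mki67, log2FC 2.56, SE 0.34, adjusted p = 0.0471 by limma) in Cort+/+ and 8 of 12 in Cort-/- mice, and 12 of 12 averaged over genotypes. Without the 3 libraries of low weight the counts were 1 in Cort+/+ mice, 2 in Cort-/- mice and 9 averaged over genotypes. Over the 26 alternatives the Cort+/+ count ran from 0 to 7, with 7 without Cort+/+ MCAO replicate 4, 3 without Cort-/- MCAO replicate 3, 2 without Cort-/- CL replicate 2 and 0 without Cort-/- CL replicate 1 or 3, Cort-/- MCAO replicate 1, 2 or 5, Cort+/+ CL replicate 2 or 3, or Cort+/+ MCAO replicate 2 or 3. Mki67 had 0.139 to 0.194 RPKM in Cort+/+ CL and 0.819 to 1.95 RPKM in Cort+/+ MCAO hemispheres. The cell types that divided are not resolved in bulk tissue.

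Of 30 other genes of neuroblasts and immature neurons, 1 rose and 2 fell in Cort-/- mice, with a median of -0.14 and 26 of 30 fitted values below 0. In Cort+/+ mice the median was -0.04 with 18 of 30 below 0. The gene that rose was Tubb2b (log2FC 0.66, SE 0.11, adjusted p = 0.0156 by limma), a beta-tubulin of growing neurites, from 35.6 to 43.9 RPKM in CL to 55.1 to 73.2 RPKM in MCAO libraries. Meis2 (log2FC -0.47, SE 0.09, adjusted p = 0.0265) and Sp9 (log2FC -0.43, SE 0.10, adjusted p = 0.0396), both transcription factors of the striatal and subventricular lineage, fell in limma. Meis2 was between 32.7 and 36.0 RPKM in CL and between 21.2 and 28.8 RPKM in MCAO libraries, and Sp9 between 1.95 and 2.15 and between 1.31 and 1.74 RPKM, without overlap. Both are also expressed in mature striatal neurons, whose markers are given below.

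Without Cort-/- CL replicate 1 Tubb2b was no longer called (adjusted p = 0.0849 by limma), and Meis2 lost its call without Cort-/- CL replicate 1, 2 or 3 or Cort-/- MCAO replicate 1 or 4 (0.0522 to 0.125). Sp9 kept its call only without Cort-/- MCAO replicate 3 or Cort+/+ MCAO replicate 3 or 4, and had an adjusted p of 0.0509 to 0.166 in limma without each of the other 11. Without the 3 libraries of low weight 0 of the 30 were called in Cort-/- mice. Averaged over genotypes 1 of the 30 rose and 4 fell, and Tubb2b (log2FC 0.56, SE 0.08) and Meis2 (log2FC -0.41, SE 0.07) were called in limma without any 1 library and without those 3. The further falls in that comparison were Sp9, Stmn4 and Dlx6, of which the last 2 are named after their values were seen. Dlx6 (log2FC -0.42, SE 0.10, adjusted p = 0.0456 by limma) lost its call without each of 12 libraries, the exceptions being Cort-/- MCAO replicate 3 and Cort+/+ MCAO replicate 4. Stmn4 lost it without Cort-/- CL replicate 3 or Cort+/+ CL replicate 3 (adjusted p = 0.0520 to 0.0550 in limma), and Sp9 without each of 6 libraries (0.0591 to 0.0747).

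**Figure D3:**
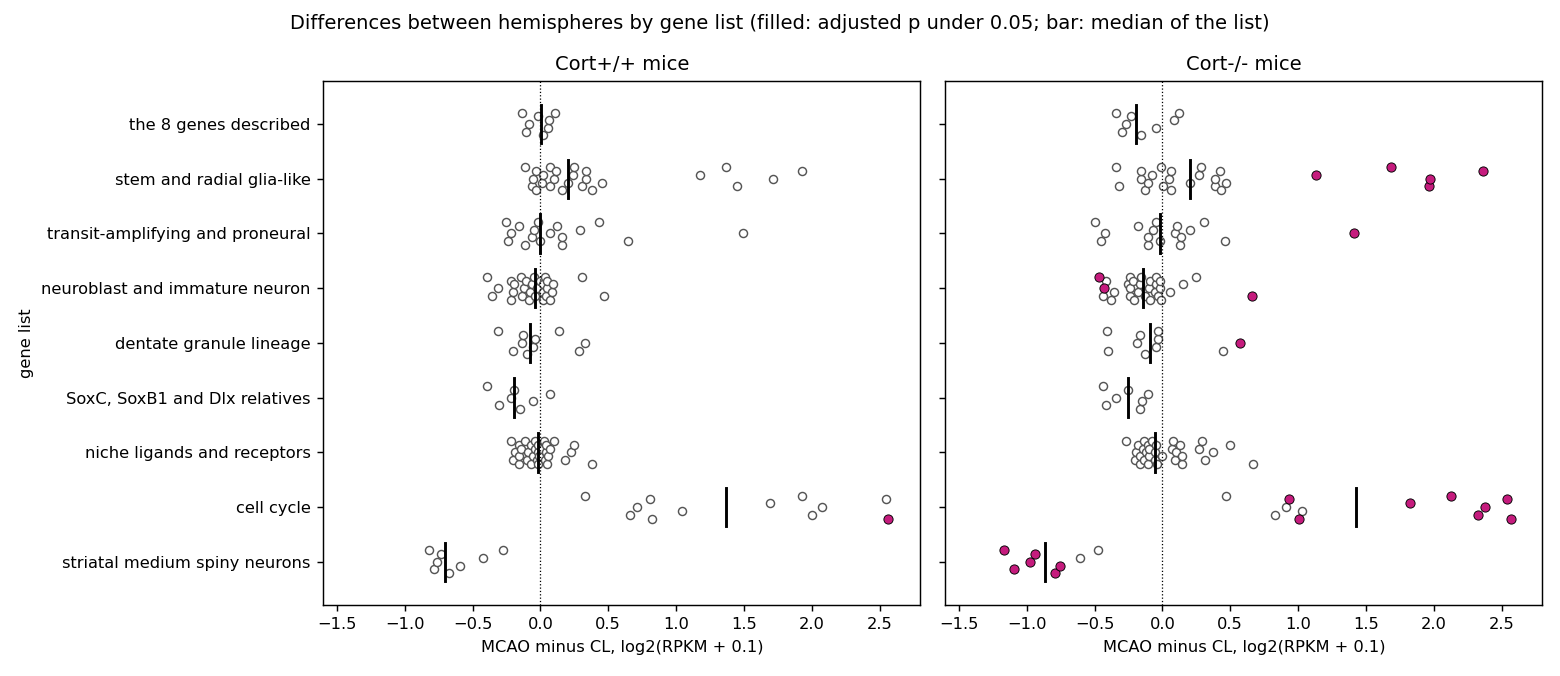
Each point is the fitted difference between MCAO and CL hemispheres in log2(RPKM + 0.1) for one gene, in Cort+/+ (left) and Cort-/- mice (right). Filled points passed an adjusted p of 0.05, and bars are list medians, which were 0.0012 and -0.19 for the 8 genes described and 1.36 and 1.43 for the cell cycle.

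The closest relatives of the members gave 0 calls in either genotype. Of 7 genes (Sox1, Sox3, Sox12, Dlx3, Dlx4, Dlx5 and Dlx6), 6 fitted values were below 0 in Cort+/+ and 7 in Cort-/- mice, with medians of -0.20 and -0.25. Dlx5 had a log2FC of -0.21 (SE 0.15) in Cort+/+ and -0.41 (SE 0.13, adjusted p = 0.159 by limma) in Cort-/- mice, where Dlx6 had -0.44 (SE 0.14, adjusted p = 0.151). Averaged over genotypes, Sox12 (log2FC -0.18, SE 0.04, adjusted p = 0.0326 by limma) and Dlx6 fell, and without the 3 libraries of low weight 0 of the 7 were called. Sox12, named after its value was seen, lost its call without each of 9 libraries and kept it without Cort-/- CL replicate 1, Cort-/- MCAO replicate 1 or 3, Cort+/+ CL replicate 1 or Cort+/+ MCAO replicate 4.

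In the dentate granule lineage 1 of 10 genes rose and 0 fell in Cort-/- mice. It was Igfbp5 (log2FC 0.57, SE 0.10, adjusted p = 0.0168 by limma), an insulin-like growth factor binding protein, whose call was lost without Cort-/- CL replicate 1 or 3 (0.0769 to 0.0786) and without the 3 libraries of low weight (0.0850). Neurod1 and Prox1, named for their role in new granule neurons, had log2FC values of -0.03 (SE 0.10) and -0.03 (SE 0.09) in Cort-/- mice, not called by limma. Ligands and receptors of the niche, 33 genes, gave 0 calls in each genotype, with medians of -0.02 and -0.05. The largest fitted values among them belonged to Cxcr4 in Cort+/+ mice (log2FC 0.38, SE 0.24), the receptor by which neuroblasts follow Cxcl12, and to Angpt2 in Cort-/- mice (log2FC 0.67, SE 0.33), an angiopoietin of blood vessels. Both were low (means of 0.928 and 0.535 RPKM), were not called and are named after their values were seen.

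Marker lists of other cell types moved with hemisphere. In Cort-/- mice 6 of 8 microglia markers rose (summed level 140 to 173 RPKM in CL and 231 to 415 RPKM in MCAO libraries), and 6 of 8 markers of striatal medium spiny neurons fell (393 to 418 RPKM in CL and 195 to 293 RPKM in MCAO libraries). In Cort+/+ mice 0 of 8 passed in each list, with microglia sums of 135 to 168 and 194 to 346 RPKM and striatal sums of 397 to 446 and 230 to 372 RPKM. Averaged over genotypes 7 of 8 microglia markers rose and 8 of 8 striatal markers fell, with 6 and 5 called without the 3 libraries of low weight. The genotype difference in the response was called for 0 markers of both lists. Of the remaining lists in Cort-/- mice, 2 of 10 astrocyte markers (Aqp4, Gfap) and 2 of 8 endothelial markers (Cdh5, Kdr) rose, and 1 of 8 mature neuron markers (Camk2a) and 1 of 8 lymphocyte markers (Cd4) fell. Fitted values were above 0 for 8 of 8 endothelial markers and below 0 for 7 of 8 mature neuron markers. The other 2 lists went mostly against their called genes, with 7 of 10 astrocyte values below 0 and 6 of 8 lymphocyte values above 0. Cd4 (mean 2.48 RPKM) was the only lymphocyte marker with a mean of at least 1 RPKM. Summed endothelial levels were 46.3 to 56.1 RPKM in Cort-/- CL and 57.9 to 67.2 RPKM in Cort+/+ CL libraries. In MCAO hemispheres the means of the 2 genotypes were alike (67.3 and 66.2 RPKM). All 8 endothelial markers had fitted values below 0 in Cort-/- against Cort+/+ CL hemispheres, with 0 called. No marker was called in either genotype for oligodendrocyte precursors (8), ependymal cells (10), choroid plexus (6), interneurons (10), neutrophils (8) or erythroid cells (6). Without the 3 libraries of low weight the Cort-/- counts were 1 for microglia and 0 for striatal neurons, astrocytes, endothelial cells, mature neurons and lymphocytes. The part of these cell types in the levels of the 8 genes was not tested.

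The 8 genes did not move as a unit from library to library. After subtracting group means from log2(RPKM + 0.1), 14 of the 28 pairs of members had a positive and 14 a negative Pearson r over the 14 libraries, with a median of 0.03. The closest pair was Igfbpl1 and Dlx1 (r = 0.90), followed by Igfbpl1 and Dlx2 (0.59), Dlx1 and Sox11 (0.59) and Dcx and Sox2 (0.53). Dlx1 and its neighbour Dlx2 had r = 0.41, the SoxC pair Sox4 and Sox11 -0.01, and Dcx and Cd24a -0.44. These values share libraries, normalization and depth, and are given as a description.

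Cort-/- MCAO replicate 4 was the lowest of its group for Dcx, Dlx1, Dlx2, Sox11 and Igfbpl1 and the highest for Sox4 and Sox2. Its Igfbpl1 level lay 0.48 below the group mean on the log2 scale, and its Dlx1 level 0.37 below. That library also held the highest sums of its group for neutrophil (15.6 RPKM, with 3.84 to 8.59 in the others), endothelial (80.1 RPKM, with 61.0 to 68.5) and cell cycle markers (54.9 RPKM, with 33.9 to 52.1). The same held for erythroid markers (187 RPKM, with 87.4 to 144) and the stem list (832 RPKM, with 495 to 801). Its sums were the lowest of the group for the neuroblast and immature neuron list (918 RPKM, with 1033 to 1096 in the others) and the Sox and Dlx relatives (13.4 RPKM, with 14.9 to 18.1). They were also lowest for interneurons (469 RPKM, with 497 to 567) and oligodendrocyte precursors (148 RPKM, with 155 to 186). The part of all these lists in the members' levels was not tested.

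**Figure D4:**
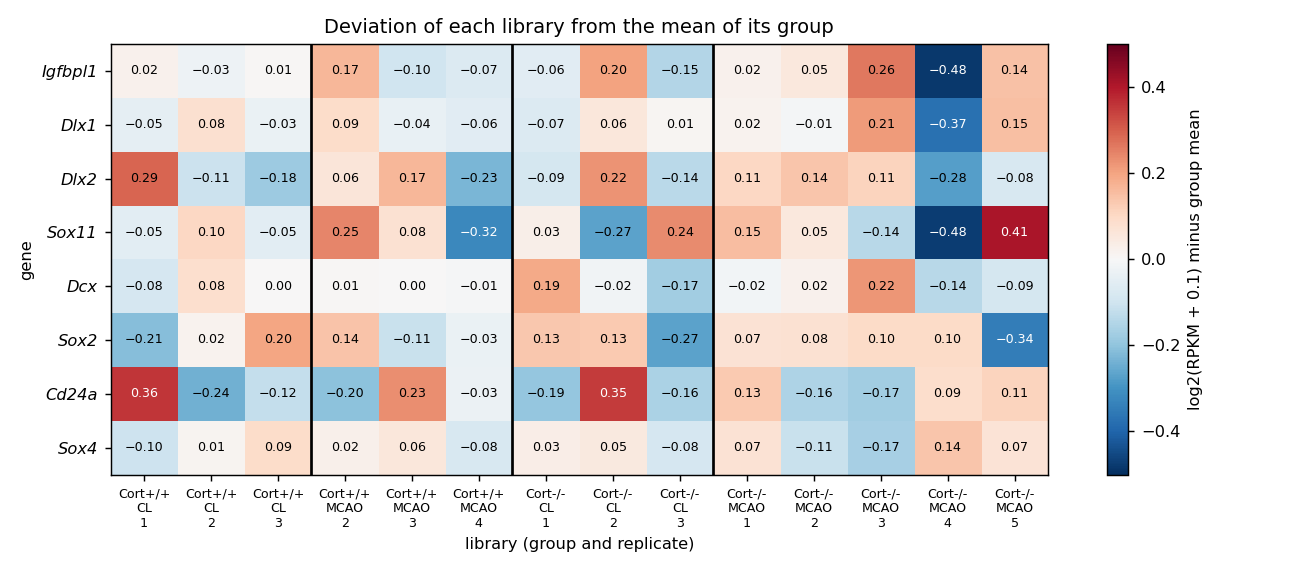
Colours and printed values give log2(RPKM + 0.1) minus the mean of its group for each gene (rows) in each library (columns, by group and replicate). The column of Cort-/- MCAO replicate 4 holds the most negative values of Igfbpl1 (-0.48), Sox11 (-0.48) and Dlx1 (-0.37), and Cd24a is highest in Cort+/+ CL replicate 1 and Cort-/- CL replicate 2 (0.36 and 0.35).

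Genes whose deviations were most like those of each member were sought among 15056 other genes of at least 1 RPKM, over 14 libraries. Dcx was closest to Nkap (r = 0.92), Fem1c and ENSMUSG00000121658, and Cd24a to Stx3 (0.95), 4931406C07Rik and Gm10353. For Igfbpl1 these were Tcerg1l (0.95), Lbhd2 and Zfp423, and for Dlx1 Syt9 (0.94), Fibcd1 and Mia. Dlx2 was closest to Rec8 (0.92), Crym and Gria1, Sox4 to 0610040J01Rik (0.91), Septin2 and Tmed5, Sox11 to Sox8 (0.93), Kdm6b and Ccdc28b, and Sox2 to Itga4 (0.89), Plekho2 and mt-Nd6. Other members were left out of this ranking. With so many genes and 14 libraries, high values of r arise for some gene in any case, and they are a ranking only.

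Counting error was smaller than the pooled spread within groups for each of the 8 genes. At its mean read count, the expected counting error was 2.75% for Dcx, 3.16% for Sox2, 3.54% for Dlx1, 3.77% for Sox4, 4.04% for Sox11, 5.17% for Cd24a, 6.41% for Dlx2 and 12.3% for Igfbpl1. The coefficient of variation within groups was 9.12% for Dcx, 12.8% for Sox2, 10.3% for Dlx1, 7.30% for Sox4, 19.4% for Sox11, 17.4% for Cd24a, 14.6% for Dlx2 and 15.7% for Igfbpl1. Igfbpl1, with the fewest reads, was the gene whose spread lay closest to its counting error. Single groups varied by less than the counting error for Igfbpl1, clearly in Cort+/+ CL (1.99%, the group without overlap with Cort-/- CL) and slightly in Cort+/+ MCAO hemispheres. The same held for Dcx in Cort+/+ MCAO hemispheres (0.443%).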

How the data were processed

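Stranded polyA RNA libraries of 14 mouse brain hemispheres were sequenced by the authors in paired ends. The methods of the study call the replicates independent and biological, and the labels give their numbers. Per the file headers and the methods of the study, the deposited values are RPKM, computed by the authors with reanalyzerGSE on GRCm39 and GENCODE M28, with no pooling. How reads on several genes, strand and gene lengths were handled is not given in the sources used here. The study kept clearly grouped replicates in comparisons of large variability, which can narrow the spread. Whole reads were recovered from the RPKM steps for 100% of 495656 values above 0 (tolerance 0.01 reads).

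Log2(RPKM + 0.1) of 46102 genes above 0 in at least 2 libraries was fitted with limma 3.58.1 in R 4.3.3 (one model of 4 groups, trend, Benjamini-Hochberg over all genes, threshold 0.05). Differences on this scale understate changes of low genes. Confidence intervals are those of limma at 95%. Annotation is GENCODE M39, promoters are RefSeq, and transcripts were aligned with minimap2. Members and the 19 gene lists were chosen with earlier results of these data known, so that their counts are no independent evidence. Named by rule are the members, up to 5 called genes per pathway list with a mean of at least 1 RPKM, the 3 genes most like each member, and genes that overlap one. Further genes, such as Dlx5, Mki67 and Kdr, fall outside this rule, and their choice may follow their values. Scripts were tested on simulated data. Python 3.11.15, pandas 2.3.3, numpy 2.4.6 and matplotlib 3.10.9 were used.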

Additional observations from a re-analysis of the deposited data

Results flagged for a closer look

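Sox2 in Cort-/- MCAO replicate 5 was far from the rest of its group, with 10.7 RPKM where the other 4 libraries had 14.3 to 14.5. Its gap to the nearest library was 0.940 of the range of the group. Without it the log2FC of Sox2 in Cort-/- mice was 0.17, again not called by limma. The summed level of the ependymal markers was high in Cort-/- MCAO replicate 1, with 30.8 RPKM against 21.2 to 23.8 RPKM in the other 4. The limit used, 0.71 of the range in 5 libraries, is passed by chance in about 1 in 20 groups, and 37 groups were examined. The ependymal gap (0.729) was just past that limit.

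Fitted differences of Igfbpl1 between hemispheres had opposite signs in the 2 genotypes, although neither passed and groups overlapped in both. All 3 Cort+/+ MCAO libraries were above the mean of Cort+/+ CL, and all 5 Cort-/- MCAO libraries were below the mean of Cort-/- CL on the log2 scale. The interaction was -0.41 (SE 0.25, adjusted p = 1.00 by limma), so that the test of the difference itself did not pass. It was -0.20 without the 3 libraries of low weight and -0.18 with a pseudocount of 1.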

How the results depend on the processing

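Under the alternatives (26 for comparisons of 2 groups, 25 for the interaction and the average over genotypes) the number of the 8 genes called was 0 in each of the 6 comparisons, over 1232 tests, with a lowest adjusted p of 0.107. They were pseudocounts of 1 and 0.01, other filters, TPM, median ratios, quantiles, fewer groups, library weights, voom, each library left out, a replicate block and, added after seeing the data, the removal of 3 libraries. Fitted values near 0 changed sign under some of these without a call. Leaving out 1 library gave 133 to 1191 calls over all genes in Cort-/- mice (792 with all) and 3 to 160 in Cort+/+ mice (5 with all, the highest without Cort+/+ MCAO replicate 4). Other settings gave 79 (without the 3 libraries) to 1293 (voom) and 1 to 57. Replicate numbers gave no clear sign of pairing hemispheres (correlation of deviations -0.24 to 0.32 over 5 shared numbers, with up to 0.40 between other numbers). The highest value in Cort+/+ mice was at a shared number (0.32, replicate 2). With deviations centred on 3 CL libraries per genotype, this check cannot exclude pairing. Which CL and MCAO libraries share an animal is not given in the sources used here, so that the fits treat them as independent. With the replicate block 0 genes and 0 members were called between hemispheres in either genotype. Averaged over genotypes it also called 0 genes, where the main fit called 1579. A member could thus hardly have been called with the block, and its 0 says little about them. Depth limits Igfbpl1 most, at 48 to 85 reads.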
